A study of Mus musculus with 12 samples.

Results

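The genes described here are 46 mouse genes of DNA replication and the S phase of the cell cycle, out of 55891 gene identifiers measured. They were taken by symbol for their known roles in origin licensing, firing, the replication fork, nucleotide supply and chromatin assembly, with earlier results of these data known. All 46 were found in the counts table, and all 46 passed the filter on low counts among the 13525 genes tested. RNA was sequenced from bone marrow derived macrophages, made from mouse marrow over 6 days in culture. The medium held M-CSF, on which marrow cells mature into macrophages, at 10 ng/mL. Cells came from KO mice, which carry the targeted allele Ptprz1tm1Nmo of a receptor-type tyrosine phosphatase gene, or from WT mice with titles beginning B6, and the strain label B6.129-Ptprz1tm1Nmo stands on every sample, WT included. Cells of each genotype received LPS (bacterial lipopolysaccharide, 100 ng/mL) together with IFNγ (10 ng/mL) for 24 h, or 20 ng/mL of IL-4 over the same time, or were left as control. This gives 6 groups, KO LPS+IFNγ, WT LPS+IFNγ, KO IL-4, WT IL-4, KO control and WT control, with 2 libraries each. Whether both libraries of a group are from different mice or cultures is not stated, so the spread behind each p-value may be technical only.

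Before a cell copies its DNA, the origin recognition complex with Cdc6 and Cdt1 loads the MCM hexamer onto origins, and in S phase kinases turn that hexamer into an active helicase. Polymerases then copy each strand behind it, a sliding clamp holds them on DNA, and other enzymes supply nucleotides, join fragments and rebuild chromatin. Most of these genes are transcribed under control of E2F factors as a cell enters S phase. Macrophages grown from marrow with M-CSF keep dividing, and strong activation with LPS or IFNγ is known to stop their growth.

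Total counts per library ran from 13665607 to 19555600, and 3 counts correspond to between 0.138 and 0.290 CPM (the count of a gene relative to its library's total, scaled for library composition). Ptprz1, the targeted gene, had 0 counts in 11 of 12 libraries and 7 counts in WT IL-4 library 2, so the RNA data do not check the knockout. Xist, expressed in female cells, was at 232 to 618 CPM in WT libraries and had 0 counts in KO libraries, while Y-linked Ddx3y was at 86.3 to 111 CPM in KO libraries and had 0 counts in WT libraries. Genotype and sex therefore cannot be told apart in these data. The 10 macrophage markers tested summed to between 8416 and 21484 CPM per library. The 8 progenitor markers summed to at most 4.798 CPM, the 5 erythroid markers to at most 0.737 CPM and the 6 lymphoid markers to at most 1.33 CPM. The 6 granulocyte markers summed to between 0.829 and 221 CPM, highest in KO LPS+IFNγ library 2. Ly6g among them had 0 counts in all 12 libraries. Of the 4 granulocyte markers tested, 1 rose after LPS+IFNγ in each genotype (log2 fold change 6.76 in KO and 4.43 in WT). The other 3 had negative values and did not pass. Among 6 genes that mark the treatments, Nos2, Il12b, Cxcl9 and Arg1 rose after LPS+IFNγ, and Arg1, Retnla and Chil3 rose after IL-4, in both genotypes.

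The promoters of a few members are shown because E2F sites are the shared element by which this set is best known. In RefSeq windows of 300 bases (250 before to 50 after each transcript start, GRCm38.p6), 38 of the 46 members had a promoter. The motif searched was TTTCCCGC, TTTGGCGC, TTTGCCGC or TTTCGCGC on either strand. It was found in 15 of 38 members (39.5%) and in 704 of 27025 genes with a window (2.60%), or by window in 33.3% of member windows and in 2.26% of all windows. Capitals mark the motif in the sequences below, which run 5′ to 3′ along the strand of the gene. Mcm6 (chr1:128359656-128359955, minus strand) and Mcm5 (chr8:75109259-75109558, plus strand) held overlapping motifs, shown as 1 run of capitals. Orc1 (chr4:108579204-108579503, plus strand) and Pola1 (chrX:93632106-93632405, minus strand) held 1 motif each. Pold3 (chr7:100121453-100121752, minus strand) held 1 motif 18 bases after its start and is shown as the member that did not pass as lower after LPS+IFNγ with TMM scaling, the composition correction used for all levels here. Rrm2 (chr12:24708004-24708303, plus strand) held none and is shown as the member with the deepest fall.
Mcm6: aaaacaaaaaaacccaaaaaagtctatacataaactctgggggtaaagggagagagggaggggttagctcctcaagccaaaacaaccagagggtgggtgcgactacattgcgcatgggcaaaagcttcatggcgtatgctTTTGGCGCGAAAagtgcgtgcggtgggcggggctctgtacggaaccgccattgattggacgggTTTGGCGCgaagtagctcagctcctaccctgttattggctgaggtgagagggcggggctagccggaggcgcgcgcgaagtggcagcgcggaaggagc
Mcm5: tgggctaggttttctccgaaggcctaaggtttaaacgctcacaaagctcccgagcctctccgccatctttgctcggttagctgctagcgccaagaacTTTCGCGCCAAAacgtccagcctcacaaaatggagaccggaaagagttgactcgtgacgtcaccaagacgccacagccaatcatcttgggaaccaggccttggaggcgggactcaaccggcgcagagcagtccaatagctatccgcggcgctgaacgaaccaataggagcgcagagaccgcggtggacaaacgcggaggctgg
Orc1: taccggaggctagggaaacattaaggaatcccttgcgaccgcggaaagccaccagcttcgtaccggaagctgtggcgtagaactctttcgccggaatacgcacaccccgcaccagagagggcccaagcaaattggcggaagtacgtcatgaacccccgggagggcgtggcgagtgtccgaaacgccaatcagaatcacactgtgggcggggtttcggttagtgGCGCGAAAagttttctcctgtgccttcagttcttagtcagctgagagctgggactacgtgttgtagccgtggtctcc
Pola1: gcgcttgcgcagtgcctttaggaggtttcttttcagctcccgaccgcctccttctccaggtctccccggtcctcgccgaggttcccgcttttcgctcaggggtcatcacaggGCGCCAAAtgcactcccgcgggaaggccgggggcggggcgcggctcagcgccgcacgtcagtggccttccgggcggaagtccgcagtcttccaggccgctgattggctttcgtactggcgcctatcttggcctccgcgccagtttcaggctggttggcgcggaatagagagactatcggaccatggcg
Pold3: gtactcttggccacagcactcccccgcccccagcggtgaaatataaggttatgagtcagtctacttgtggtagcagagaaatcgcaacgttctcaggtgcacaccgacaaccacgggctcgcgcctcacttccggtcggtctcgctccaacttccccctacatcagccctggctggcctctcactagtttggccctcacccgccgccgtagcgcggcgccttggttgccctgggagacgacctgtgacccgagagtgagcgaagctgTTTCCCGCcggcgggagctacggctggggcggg
Rrm2: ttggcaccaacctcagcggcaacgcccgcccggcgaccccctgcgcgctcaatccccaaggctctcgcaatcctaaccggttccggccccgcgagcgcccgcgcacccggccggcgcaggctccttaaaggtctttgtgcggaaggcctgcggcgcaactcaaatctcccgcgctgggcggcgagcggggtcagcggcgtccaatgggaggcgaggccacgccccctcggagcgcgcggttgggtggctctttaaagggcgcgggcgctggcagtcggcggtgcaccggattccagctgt

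The Mcm6 motifs began 110, 106 and 47 bases before the start, and those of Mcm5 153 and 149 bases before it. Cdc6, Cdt1, Gins3, Lig1, Mcm3, Mcm7, Pold1, Pole2, Rfc3 and Uhrf1 were the other members with a motif. Of other cell cycle elements, CCAAT was present in 57.9% of members and 41.1% of genes, and the CHR letters TTTGAA or TTCGAA in 23.7% of members and 21.7% of genes. A match describes the letters of the window and is not evidence of a bound site.

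LPS+IFNγ was compared with control to ask what the stimulus did to the replication genes. In KO libraries 45 of 46 members fell and 0 rose, with a median log2 fold change of −2.84 against −0.01 for all genes tested. In WT libraries 45 fell and 0 rose, with a median of −2.74 against −0.05 for all genes. Over all genes, the share that fell was 26.1% in KO and 27.0% in WT. Calls are from the quasi-likelihood test of edgeR, with p-values adjusted by Benjamini-Hochberg over all genes and a threshold of 0.05. The same 45 genes fell in both genotypes, and the exception in both was Pold3, an accessory subunit of polymerase δ, which was also called lower with scaling by total counts. In each genotype, the LPS+IFNγ libraries lay below both control libraries for 45 members, against 37.1% of all genes in KO and 42.5% in WT. The summed level of the 46 members was 636 and 665 CPM in KO LPS+IFNγ libraries, against 3756 and 3637 CPM in KO control libraries. The sum was 646 and 635 CPM in WT LPS+IFNγ libraries, against 3292 and 3076 CPM in WT control libraries. The heat map of all members shows the 4 LPS+IFNγ libraries apart from the other 8. In bulk RNA, fewer cells in S phase and less of each RNA per cell cannot be told apart.

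**Figure D1:**
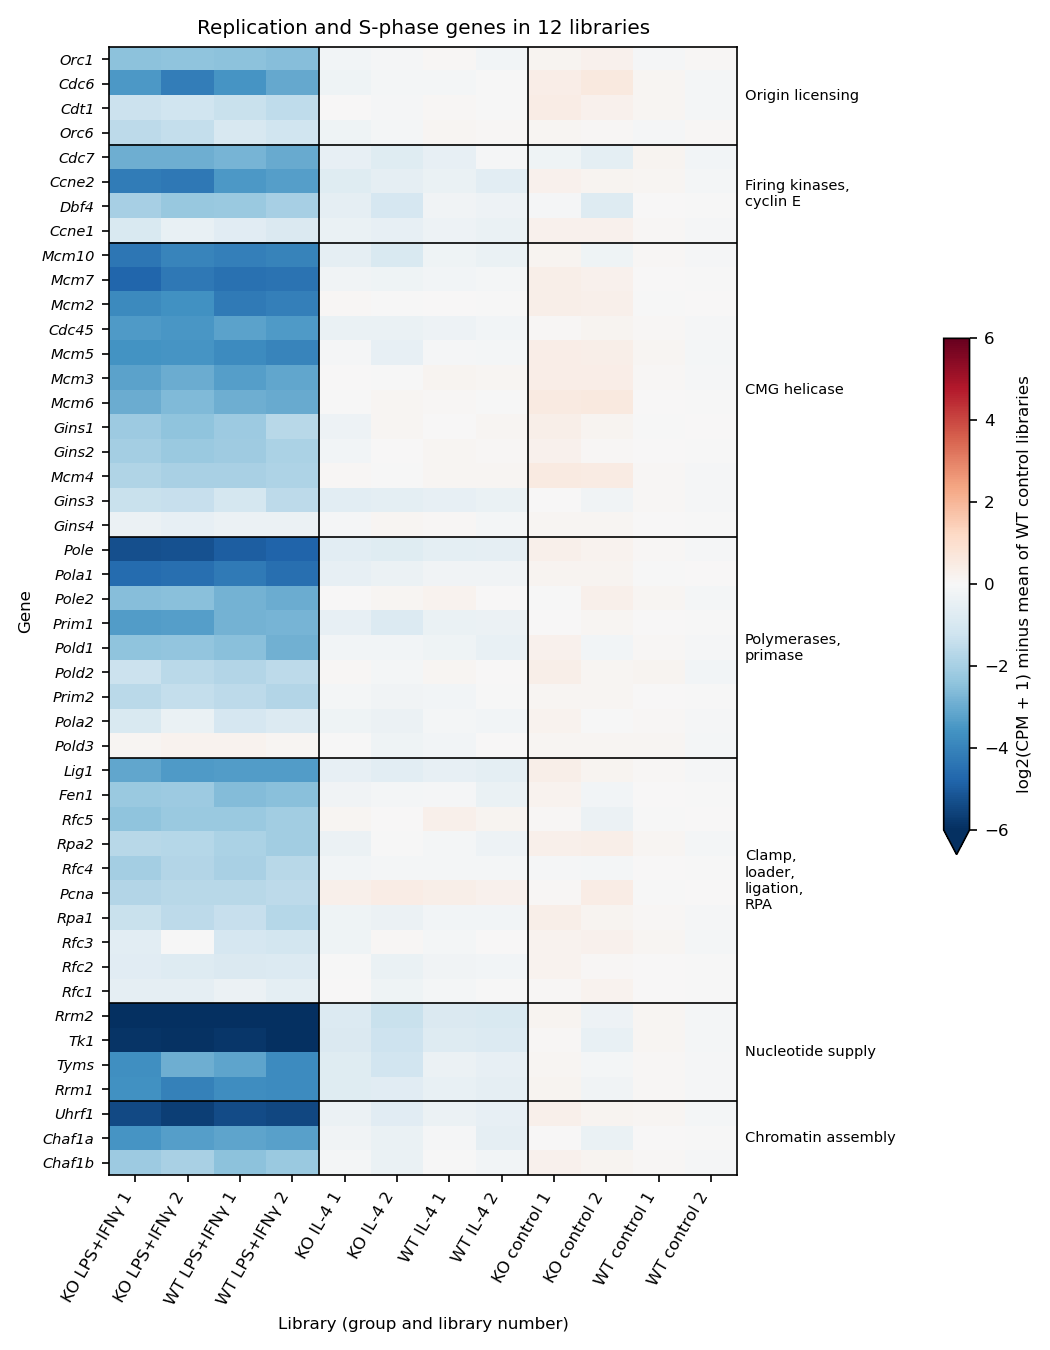
Each row is 1 of the 46 genes, grouped by role, and each column is 1 of the 12 libraries. Colour gives log2(CPM + 1) minus the mean of the WT control libraries, with the scale ending at −6, and 45 rows are lower in the LPS+IFNγ columns while Pold3, with TMM scaling, is not.

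The depth of the fall differed between members. At least a 2-fold fall was seen for 39 members in KO and 40 in WT, at least 4-fold for 31 in each, at least 8-fold for 23 in KO and 22 in WT, and at least 32-fold for 10 in KO and 6 in WT. Across the 46 genes, the log2 fold changes of KO and WT had a Pearson r of 0.97, given as a description, since genes are not replicates and all values come from 1 fit with shared scaling. The nucleotide supply group had the most negative median (−5.52 in KO and −5.76 in WT), and the clamp group the least negative (−2.05 in KO and −1.86 in WT).

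**Figure D2:**
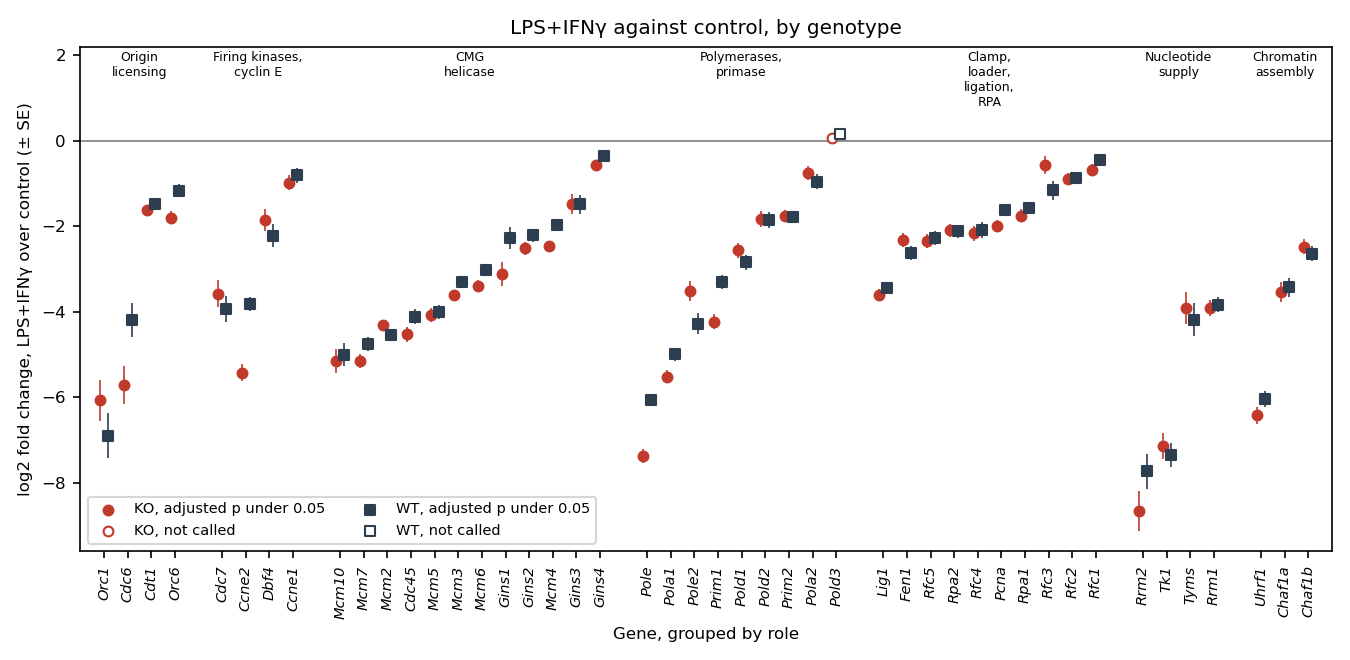
Points give the log2 fold change of LPS+IFNγ over control (± SE) for each gene, with KO (red circles) left of WT (blue squares), and filled symbols are past the threshold. Values run down to −8.65 for Rrm2 in KO, and Pold3 at 0.06 in KO and 0.15 in WT is the only member above 0, though it is below 0 with scaling by total counts.

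Origin licensing genes fell in both genotypes, 4 of 4. Orc1, the largest subunit of the origin recognition complex, was at 0.0675 and 0.0968 CPM in KO LPS+IFNγ libraries, against 5.62 and 5.95 CPM in KO control libraries. Its levels in WT were 0.0681 and 0 CPM after LPS+IFNγ, against 4.47 and 5.22 CPM in control. All 4 stimulated libraries were below the level of 3 counts. The groups held 2 counts against 244 in KO, a 72.6-fold ratio with a 95% counting interval of 19.9 to 603. In WT they held 1 count against 198, a ratio of 143 with an interval of 25.3 to 5661, so the depth of the Orc1 fall was not well determined at these depths. Cdt1, which brings the MCM hexamer to origins, was at 18.6 and 19.8 CPM in KO LPS+IFNγ libraries, against 63.3 and 55.4 CPM in KO control libraries. Cdt1 in WT was at 17.6 and 15.6 CPM after LPS+IFNγ, against 49.9 and 43.0 CPM in control. The stimulated and control libraries did not overlap, and the log2 fold change was −1.63 ± 0.12 in KO (SE, edgeR adjusted p = 6.22e-06) and −1.49 ± 0.12 in WT (adjusted p = 9.39e-06). Cdc6, the loading ATPase, changed by −5.71 ± 0.44 in KO and −4.19 ± 0.39 in WT. The KO LPS+IFNγ libraries differed in Cdc6, at 0.810 and 0.0968 CPM, against 25.3 and 28.3 CPM in KO control libraries, and together held 13 counts against 1130, a ratio of 51.8 with a counting interval of 30.1 to 97.5. Orc6, the smallest subunit of the complex, changed by −1.80 ± 0.15 in KO and −1.17 ± 0.15 in WT.

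The firing genes fell in both genotypes, 4 of 4. Cdc7, the kinase that with its activator Dbf4 phosphorylates the loaded MCM hexamer, was at 0.743 and 0.774 CPM in KO LPS+IFNγ libraries, against 10.4 and 7.85 CPM in KO control libraries. For WT, Cdc7 was at 0.954 and 0.678 CPM after LPS+IFNγ, against 14.3 and 10.8 CPM in control. Its log2 fold change was −3.58 ± 0.31 in KO (edgeR adjusted p = 1.37e-05) and −3.94 ± 0.30 in WT (adjusted p = 5.94e-06). Dbf4 fell less, by a log2 fold change of −1.85 ± 0.26 in KO and −2.22 ± 0.26 in WT. Ccne2 and Ccne1 both encode E-type cyclins, partners of Cdk2 at the start of S phase. Ccne2 was at 1.01 and 0.871 CPM in KO LPS+IFNγ libraries, against 41.9 and 40.02 CPM in KO control libraries. In the WT libraries Ccne2 was at 2.38 and 2.64 CPM after LPS+IFNγ, against 38.2 and 32.9 CPM in control. The fall of Ccne2 was 42.8-fold in KO and 14.1-fold in WT, while Ccne1 fell 1.97-fold in KO and 1.76-fold in WT.

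The CMG helicase is built from the Mcm2 to Mcm7 hexamer, Cdc45 and the GINS complex, and all 12 genes of this group fell in both genotypes. Mcm2 was at 4.46 and 5.32 CPM in KO LPS+IFNγ libraries, against 98.4 and 94.5 CPM in KO control libraries, and at 3.07 and 3.52 CPM in WT LPS+IFNγ libraries, against 75.4 and 78.2 CPM in WT control libraries. Mcm7 was at 3.24 and 4.84 CPM in KO LPS+IFNγ libraries, against 148 and 136 CPM in KO control libraries, and at 4.16 and 4.27 CPM in WT LPS+IFNγ libraries, against 116 and 112 CPM in WT control libraries. These were the hexamer subunits with the deepest falls, with log2 fold changes of −4.31 ± 0.13 in KO and −4.54 ± 0.13 in WT for Mcm2, and −5.16 ± 0.16 in KO and −4.76 ± 0.16 in WT for Mcm7. Mcm5 was at 10.3 and 10.6 CPM in KO LPS+IFNγ libraries, against 179 and 174 CPM in KO control libraries, and at 8.99 and 7.72 CPM in WT LPS+IFNγ libraries, against 144 and 126 CPM in WT control libraries. Mcm3 was at 11.01 and 13.2 CPM in KO LPS+IFNγ libraries, against 146 and 146 CPM in KO control libraries, and at 10.5 and 11.9 CPM in WT LPS+IFNγ libraries, against 115 and 107 CPM in WT control libraries. Both were far below control in all stimulated libraries, with 16.8-fold and 16.1-fold falls of Mcm5 in KO and WT, and 12.1-fold and 9.92-fold falls of Mcm3 in KO and WT.

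Mcm6 fell 10.5-fold in KO and 8.07-fold in WT, and Mcm4 fell less. Mcm6 was at 22.7 and 29.4 CPM in KO LPS+IFNγ libraries, against 270.2 and 278 CPM in KO control libraries, and at 24.0 and 22.3 CPM in WT LPS+IFNγ libraries, against 190.1 and 184 CPM in WT control libraries. Mcm4 was at 21.9 and 19.6 CPM in KO LPS+IFNγ libraries, against 117 and 113 CPM in KO control libraries, and at 19.5 and 20.9 CPM in WT LPS+IFNγ libraries, against 82.2 and 75.6 CPM in WT control libraries. The 4 stimulated libraries lay below the 4 controls for both genes. Mcm4 had the smallest fall of the hexamer, 5.51-fold in KO (log2 −2.46 ± 0.10, edgeR adjusted p = 2.82e-07) and 3.90-fold in WT (log2 −1.96 ± 0.10, adjusted p = 6.24e-07). The 6 subunits stand in equal numbers in the hexamer, but their RNA levels differed. Per kilobase of merged exon, Mcm6 was the highest and Mcm2 the lowest in the control and IL-4 groups, 3.63 to 4.23 times apart in level. After LPS+IFNγ, Mcm4 was the highest and Mcm2 the lowest, 8.23 times apart in KO and 11.9 times apart in WT (levels per kilobase of 5.79 against 0.703 CPM in KO, and 5.64 against 0.474 CPM in WT). Merged exons join all annotated exons of a gene and can exceed the length of 1 transcript. They held 6956 bases for Mcm2, against 3589 for Mcm4 and 4666 for Mcm6. The ranking after LPS+IFNγ depended on this divisor. In CPM without it, Mcm6 was above Mcm4 (means of 26.1 against 20.8 in KO, and 23.2 against 20.2 in WT). The lowest was then Mcm7 in KO (4.04, against 4.89 for Mcm2) and still Mcm2 in WT (3.29). In the control and IL-4 groups, Mcm6 was the highest and Mcm2 the lowest without it too. The part of this divisor in the spread was not tested.

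The proteins that activate the hexamer behaved unevenly. Mcm10, which is needed to start unwinding, was at 0.675 and 1.16 CPM in KO LPS+IFNγ libraries, against 36.8 and 27.0 CPM in KO control libraries, and at 0.954 and 1.08 CPM in WT LPS+IFNγ libraries, against 34.3 and 31.5 CPM in WT control libraries. Its fall was 35.7-fold in KO and 32.1-fold in WT, and that of Cdc45 was 23.1-fold in KO and 17.3-fold in WT. The GINS subunits form 1 complex with Cdc45 and the hexamer, yet their log2 fold changes ran from −3.11 ± 0.27 for Gins1 to −0.57 ± 0.12 for Gins4 in KO, and from −2.28 ± 0.26 for Gins1 to −0.36 ± 0.12 for Gins4 in WT. Gins2 (−2.52 in KO and −2.21 in WT) and Gins3 (−1.48 in KO and −1.49 in WT) lay between them. The small fall of Gins4 in WT was not past the threshold without either WT LPS+IFNγ library, either WT control library or KO control library 2, or with no filter on low counts.

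Polymerases and primase held 1 of the deepest falls and the gene that was not called. Pole, the catalytic subunit of the leading strand polymerase ε, was at 0.338 and 0.387 CPM in KO LPS+IFNγ libraries, against 63.3 and 57.7 CPM in KO control libraries. The WT values of Pole were 0.681 and 0.813 CPM after LPS+IFNγ, against 52.0 and 48.6 CPM in control. Its fall was 166-fold in KO (edgeR adjusted p = 5.93e-08) and 66.7-fold in WT (adjusted p = 8.40e-08). The partner subunit Pole2 fell 11.4-fold in KO and 19.4-fold in WT. Pold3 was at 48.9 and 53.9 CPM in KO LPS+IFNγ libraries, against 49.0 and 49.8 CPM in KO control libraries, and at 52.3 and 49.5 CPM in WT LPS+IFNγ libraries, against 49.1 and 42.6 CPM in WT control libraries. The KO LPS+IFNγ libraries lay on either side of both KO control libraries, and both WT LPS+IFNγ libraries lay just above the WT controls, with log2 fold changes of 0.06 ± 0.12 in KO (adjusted p = 0.728) and 0.15 ± 0.12 in WT (adjusted p = 0.324). With scaling by total counts, which shifted the median of all genes by −0.50 in both genotypes, Pold3 was at −0.44 in KO and −0.35 in WT and all 46 members fell. The catalytic subunit Pold1 changed by −2.56 ± 0.18 in KO and −2.84 ± 0.18 in WT, and the accessory subunit Pold2 by −1.84 ± 0.19 in KO and −1.86 ± 0.19 in WT. Within the polymerase α and primase complex, catalytic Pola1 fell 45.7-fold in KO and 31.8-fold in WT, and its partner Pola2 fell 1.69-fold in KO and 1.95-fold in WT. The catalytic primase subunit Prim1 fell 18.7-fold in KO and 9.91-fold in WT, and its partner Prim2 fell 3.39-fold in KO and 3.47-fold in WT.

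The clamp, its loader, the lagging strand enzymes and RPA fell in both genotypes, 10 of 10. Pcna, the sliding clamp, was the most abundant member per kilobase in every group, and was at 181 and 195 CPM in KO LPS+IFNγ libraries, against 652 and 849.8 CPM in KO control libraries. Pcna in WT was at 192 and 206 CPM after LPS+IFNγ, against 616 and 616 CPM in control. It fell 3.997-fold in KO (edgeR adjusted p = 4.62e-06) and 3.09-fold in WT (adjusted p = 1.31e-05). Lig1, the ligase that joins lagging strand fragments, was at 14.04 and 11.4 CPM in KO LPS+IFNγ libraries, against 164 and 147 CPM in KO control libraries. Lig1 in WT was at 12.1 and 11.9 CPM after LPS+IFNγ, against 139 and 122 CPM in control. It had the deepest fall of the group, 12.1-fold in KO and 10.9-fold in WT. The flap endonuclease Fen1 changed by −2.31 ± 0.16 in KO and −2.62 ± 0.16 in WT on the log2 scale. Of the clamp loader, Rfc4 and Rfc5 fell between 4.24-fold and 5.11-fold over both genotypes. The large subunit Rfc1 fell 1.61-fold in KO and 1.37-fold in WT, Rfc2 1.87-fold in KO and 1.83-fold in WT, and Rfc3 1.49-fold in KO and 2.24-fold in WT. Rfc3 in KO was close to the threshold (adjusted p = 0.0489). It was not past it in DESeq2, with DESeq2-type size factors, with the 4 libraries of the contrast alone or in 9 of the 12 fits that left out 1 library, the exceptions being KO LPS+IFNγ library 2 and both KO IL-4 libraries. Rfc1 in WT was not past it without WT LPS+IFNγ library 2 or WT control library 1. The RPA subunits Rpa1 and Rpa2, which coat single-stranded DNA, fell by 1.75 and 2.10 in KO and by 1.56 and 2.12 in WT on the log2 scale.

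Nucleotide supply fell the most. Rrm2, the regulatory subunit of ribonucleotide reductase that is made in S phase, was at 0.135 and 0.581 CPM in KO LPS+IFNγ libraries, against 152 and 112 CPM in KO control libraries. The WT levels of Rrm2 were 0.341 and 0.949 CPM after LPS+IFNγ, against 149 and 127 CPM in control. Over 2 libraries each, Rrm2 had 8 counts after LPS+IFNγ against 5605 in control in KO, and 19 against 5643 in WT. The fitted falls of Rrm2 were 403-fold in KO (edgeR adjusted p = 8.72e-07) and 212-fold in WT (adjusted p = 8.00e-07). Rrm1, the catalytic subunit, was at 17.8 and 12.9 CPM in KO LPS+IFNγ libraries, against 264 and 199 CPM in KO control libraries. Rrm1 in WT was at 16.7 and 15.99 CPM after LPS+IFNγ, against 241 and 224 CPM in control. The catalytic subunit fell 15.0-fold in KO and 14.2-fold in WT. Thymidine kinase Tk1 fell 140.5-fold in KO and 162-fold in WT, with counting intervals of 86.5 to 255 in KO and 103 to 283 in WT. Thymidylate synthase Tyms fell 15.0-fold in KO and 18.2-fold in WT. The 3 chromatin genes also fell. Uhrf1, which reads hemimethylated DNA and brings the maintenance methyltransferase to it, was at 1.89 and 1.452 CPM in KO LPS+IFNγ libraries, against 153 and 137 CPM in KO control libraries. Uhrf1 in WT was at 1.98 and 1.76 CPM after LPS+IFNγ, against 131 and 114 CPM in control. Its fall was 85.1-fold in KO (adjusted p = 9.82e-08) and 65.5-fold in WT (adjusted p = 1.06e-07). The chromatin assembly factor subunits Chaf1a and Chaf1b fell 11.59-fold and 5.57-fold in KO, and 10.8-fold and 6.22-fold in WT.

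Among members with a RefSeq promoter, the 15 with an E2F motif had a median log2 fold change of −3.60 in KO and −3.45 in WT, and the 23 without one had −2.35 in KO and −2.62 in WT. The ranges overlapped, from −6.41 to 0.06 with a motif and from −8.65 to −0.68 without one in KO. Counts of some members may be shared with other genes, since the kit kept strand but its use in counting is not given in the sources used here. In the GENCODE M21 annotation, 16 members shared exonic bases with another gene, 14 of them on the opposite strand, among them Mcm7 with Cops6 and Ap4m1, Ccne2 with Ints8 and Lig1 with Zswim9. The Pcna pseudogene Pcna-ps2 had 157 counts over the 12 libraries, against 128310 for Pcna.

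**Figure D3:**
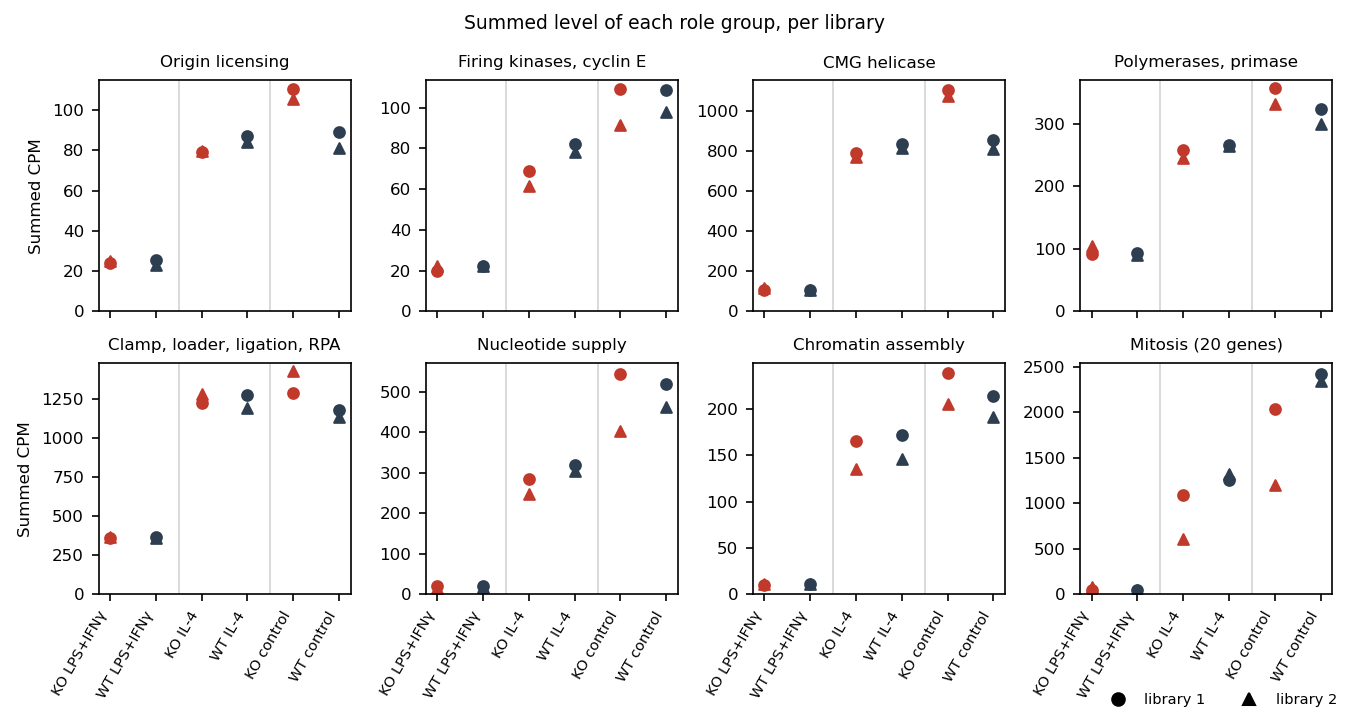
Each panel gives the summed CPM of 1 role group, and the last panel that of 20 mitosis genes, with KO in red left of WT in blue and a circle for library 1 and a triangle for library 2. LPS+IFNγ libraries lie lowest in every panel, and the mean IL-4 sum of nucleotide supply is 1.785-fold below control in KO and 1.57-fold in WT.

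IL-4 was compared with control to ask the same of the other stimulus. In KO libraries 15 members fell and 0 rose (median log2 fold change −0.40, against 0.00 for all genes), and in WT libraries 4 fell and 0 rose (median −0.15, against −0.02 for all genes). The share of all genes that fell was 3.34% in KO and 4.12% in WT. The 15 in KO were Mcm4, Mcm5, Mcm6, Mcm7, Cdc45, Pola1, Prim1, Pole, Lig1, Rpa1, Rrm1, Tk1, Uhrf1, Ccne1 and Ccne2, and the 4 in WT were Pole, Lig1, Tk1 and Ccne2. These 4 were all in the KO list, which makes 100% of the WT list and 26.7% of the KO list. Across the 46 genes the log2 fold changes of KO and WT had a Pearson r of 0.76, as a description. Both IL-4 libraries lay below both control libraries for 39 members in KO and 24 in WT, against 23.6% and 33.3% of all genes in KO and WT. DESeq2 called 22 members lower in KO and 6 in WT, against 7.06% of all genes in KO and 6.51% in WT.

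The IL-4 counts depended on which libraries were in the fit. Fitted with the 4 libraries of the contrast alone, 0 members fell in KO and 12 in WT, with Pcna as the 1 member higher in WT. The KO count was 3 without KO control library 1, 4 without KO IL-4 library 2, 8 without either WT IL-4 or either WT control library, and 9 without either WT LPS+IFNγ library. The WT count was 0 without either WT IL-4 or either WT control library and 1, Pole, without either WT LPS+IFNγ library. Pole, Lig1 and Ccne2 passed in KO in each fit that left out 1 library.

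**Figure D4:**
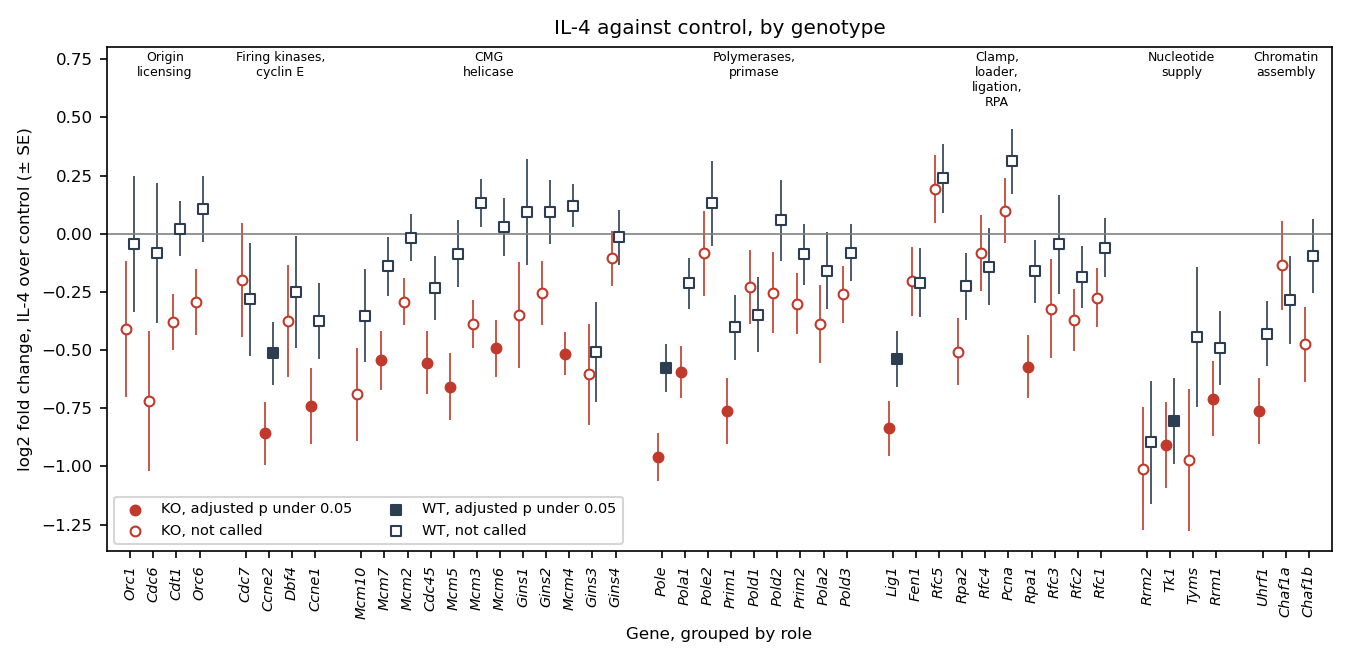
Points give the log2 fold change of IL-4 over control (± SE) for each gene, with KO (red circles) left of WT (blue squares), and filled symbols are past the threshold. The axis spans a far smaller range than for LPS+IFNγ, from −1.01 for Rrm2 in KO to 0.31 for Pcna in WT.

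Pole was at 32.03 and 30.2 CPM in KO IL-4 libraries, against 63.3 and 57.7 CPM in KO control libraries (log2 fold change −0.96 ± 0.10, edgeR adjusted p = 0.00146). The WT libraries had 33.1 and 34.3 CPM after IL-4, against 52.0 and 48.6 CPM in control (−0.58 ± 0.10, adjusted p = 0.0112). This catalytic polymerase subunit had the smallest adjusted p of the members in both genotypes. Lig1 was at 91.1 and 82.9 CPM in KO IL-4 libraries (−0.84 ± 0.12, adjusted p = 0.00474) and at 92.0 and 87.8 CPM in WT IL-4 libraries (−0.54 ± 0.12, adjusted p = 0.0249). Ccne2 was at 21.2 and 24.0 CPM in KO IL-4 libraries (−0.86 ± 0.14, adjusted p = 0.00749) and at 27.1 and 22.7 CPM in WT IL-4 libraries (−0.51 ± 0.14, adjusted p = 0.0464). All IL-4 libraries of these 3 genes lay below all control libraries of the same genotype.

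The nucleotide supply genes had the most negative median after IL-4, −0.94 in KO and −0.65 in WT, with 4 of 4 values negative in each genotype. Tk1 fell by 0.91 in KO and by 0.80 in WT on the log2 scale. Rrm2 was at 78.0 and 53.4 CPM in KO IL-4 libraries and 75.9 and 72.2 CPM in WT IL-4 libraries, with log2 fold changes of −1.01 ± 0.27 (edgeR adjusted p = 0.0533) and −0.90 ± 0.26 (adjusted p = 0.0657) that did not pass in edgeR. Rrm2 was called lower in both genotypes with DESeq2 and with no filter on low counts. Rrm1 was at 140.1 and 143 CPM in KO IL-4 libraries (−0.71 ± 0.16, adjusted p = 0.0323) and 170.1 and 161 CPM in WT IL-4 libraries (−0.49 ± 0.16, adjusted p = 0.0875), so it passed in KO. Uhrf1 was at 96.0 and 75.1 CPM in KO IL-4 libraries (−0.76 ± 0.14, adjusted p = 0.0154) and 95.2 and 87.2 CPM in WT IL-4 libraries (−0.43 ± 0.14, adjusted p = 0.0891).

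After IL-4 the hexamer genes had negative values in KO and values on both sides of 0 in WT. Mcm2 was at 81.6 and 75.9 CPM in KO IL-4 libraries (−0.29 ± 0.10) and 77.3 and 74.5 CPM in WT IL-4 libraries (−0.02 ± 0.10). Mcm3 was at 112 and 111 CPM in KO IL-4 libraries (−0.39 ± 0.10) and 123 and 120.4 CPM in WT IL-4 libraries (0.13 ± 0.10). Neither passed in either genotype. Mcm4 was at 81.8 and 78.6 CPM in KO IL-4 libraries (−0.52 ± 0.09, edgeR adjusted p = 0.0146) and 84.9 and 86.7 CPM in WT IL-4 libraries (0.12 ± 0.09, adjusted p = 0.474). Mcm5 was at 129 and 94.98 CPM in KO IL-4 libraries (−0.66 ± 0.14, adjusted p = 0.029) and 129.5 and 124 CPM in WT IL-4 libraries (−0.09 ± 0.14, adjusted p = 0.775). Mcm6 was at 183 and 206 CPM in KO IL-4 libraries (−0.49 ± 0.12, adjusted p = 0.0462) and 196 and 186 CPM in WT IL-4 libraries (0.03 ± 0.12, adjusted p = 0.925). These 3 passed in KO and not in WT. Mcm7 was at 97.8 and 96.6 CPM in KO IL-4 libraries (−0.54 ± 0.13, adjusted p = 0.0366) and 102 and 105 CPM in WT IL-4 libraries (−0.14 ± 0.13, adjusted p = 0.55). Mcm10 was at 22.5 and 17.1 CPM in KO IL-4 libraries and 27.1 and 24.5 CPM in WT IL-4 libraries, and did not pass in either.

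Of the 10 genes of the clamp group, 2 passed as lower after IL-4 in KO (Lig1 and Rpa1) and 1 in WT (Lig1). The share of all genes was 3.34% in KO and 4.12% in WT. Of the 4 licensing genes 0 passed in either genotype, with log2 values from −0.72 to −0.29 in KO and from −0.08 to 0.11 in WT. In edgeR 2 of them were lower with an unadjusted p below 0.05 in KO and 0 in WT, against 12.1% of all genes in KO and 12.7% in WT, and DESeq2 called 1 in KO and 0 in WT. Orc1 was at 4.21 and 4.50 CPM in KO IL-4 libraries and 5.13 and 4.27 CPM in WT IL-4 libraries, and Cdt1 at 47.4 and 43.9 CPM in KO and 48.5 and 45.8 CPM in WT. Cdc7 was at 8.69 and 7.20 CPM in KO IL-4 libraries and 8.70 and 11.98 CPM in WT IL-4 libraries (−0.20 ± 0.24 in KO and −0.28 ± 0.24 in WT). Pold3 was at 44.7 and 37.8 CPM in KO IL-4 libraries and 40.7 and 45.96 CPM in WT IL-4 libraries (−0.26 ± 0.12 in KO and −0.08 ± 0.12 in WT). Pcna was at 759.8 and 848 CPM in KO IL-4 libraries (0.10 ± 0.14, edgeR adjusted p = 0.727) and 794 and 734 CPM in WT IL-4 libraries (0.31 ± 0.14, adjusted p = 0.2). Pcna and Rfc5 were the members with positive values in both genotypes, and neither passed.

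LPS+IFNγ was also set against IL-4, with the same stimulated libraries as above. In KO 42 members were lower after LPS+IFNγ than after IL-4 (median −2.65), against 28.1% of all genes, and in WT 45 were lower (median −2.53), against 28.1% of all genes. In KO, Pola2 (−0.37 ± 0.17), Rfc3 (−0.25 ± 0.22), Ccne1 (−0.24 ± 0.17) and Pold3 (0.32 ± 0.12) did not pass, and in WT Pold3 (0.23 ± 0.12) did not. Pold3 was the 1 member with a positive value in both, and it was called higher in KO by DESeq2, with DESeq2-type size factors, and without KO IL-4 library 1 or KO control library 2.

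KO was compared with WT to ask whether these genes differed between genotypes. KO and WT libraries also differed in sex by Xist and Ddx3y, so no difference can be assigned to loss of Ptprz1. No member passed edgeR's adjusted test in any genotype contrast, within any of the 3 treatments, for the mean of the 3 treatments or for either interaction with treatment. The share of all genes called was 0.0739% for control, 0.0591% for LPS+IFNγ, 0.0665% for IL-4, 0.170% for the mean and 0% for both interactions. At an unadjusted p below 0.05, 8 members stood out in control (7.48% of all genes), 6 after LPS+IFNγ (8.27%), 0 after IL-4 (3.35%), 10 for the mean (11.3%), 6 in the interaction with LPS+IFNγ (3.52%) and 8 in the interaction with IL-4 (4.47%). DESeq2 called 3 members in control (0.503% of all genes) and 1 in the interaction with IL-4 (0.0444%). It called 0 members in the genotype contrast within LPS+IFNγ (0.251%), within IL-4 (0.133%), for the mean (0.702%) and for the interaction with LPS+IFNγ (0.0444%).

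In control libraries, 35 of 46 members had positive KO over WT values, with a median log2 fold change of 0.16. Over all genes, 6913 of 13525 values were positive, with a median of 0.01. Both KO control libraries lay above both WT control libraries for 28 members, against 21.6% of all genes, and below both for 3, against 22.6% of all genes. The 8 members with an unadjusted p below 0.05 were Mcm2 to Mcm7, Pole and Cdt1, all higher in KO. Mcm4, at 117 and 113 CPM in KO control and 82.2 and 75.6 CPM in WT control libraries, had a log2 difference of 0.54 ± 0.09 (edgeR adjusted p = 0.188). Mcm6, at 270.2 and 278 CPM in KO control and 190.1 and 184 CPM in WT control libraries, had a difference of 0.55 ± 0.12 (adjusted p = 0.394), and neither passed. DESeq2 called Mcm3, Mcm4 and Mcm6 higher in KO. EdgeR called Mcm4 and Mcm6 when the 3 KO libraries numbered 2 were left out together, a choice made after seeing the data. The 4 nucleotide supply genes were not higher in KO, with values from −0.16 to −0.003 and a median of −0.03. At an unadjusted p below 0.05 in edgeR, 0 of these 4 stood out (7.48% of all genes).

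Other markers also differed between the libraries. The 20 mitosis genes had negative KO over WT values in control in 20 of 20 cases (median −0.62), against 6532 of 13525 for all genes. Of the 20, 0 were called by edgeR (0.0739% of all genes) and 0 by DESeq2 (0.503%). At an unadjusted p below 0.05 in edgeR there were 3 (7.48% of all genes). The summed level of the mitosis genes was 2030.1 and 1200.3 CPM in KO control libraries and 2422 and 2342 CPM in WT control libraries, so it differed between the KO libraries themselves. Summed stromal and endothelial markers (12 genes, 10 of them tested) were at 411 and 1011 CPM in KO control and 80.1 and 409 CPM in WT control libraries. After LPS+IFNγ they were at 349 and 862 CPM in KO and 89.5 and 251 CPM in WT, and after IL-4 at 406 and 1515 CPM in KO and 73.5 and 268 CPM in WT. Col1a1 was present in all 12 libraries (14.6 to 651 CPM), and Lum and Thy1 stayed at or below 0.743 CPM. Without the 3 KO libraries numbered 2, which hold the higher stromal sums, 45 members fell after LPS+IFNγ and 16 after IL-4 in KO. The part of these markers in the values of the replication genes was not tested.

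After LPS+IFNγ, Ccne2 had the smallest p of the members between genotypes, at 1.01 and 0.871 CPM in KO and 2.38 and 2.64 CPM in WT libraries (−1.40 ± 0.22, edgeR adjusted p = 0.0966). It was called lower in KO with no filter on low counts and without KO LPS+IFNγ library 1, and in that last fit Rfc3 was called higher. In the interaction of genotype with LPS+IFNγ, Ccne2 was at −1.60 ± 0.26 (adjusted p = 0.562) and Pole at −1.31 ± 0.28 (adjusted p = 0.991). The interaction with IL-4 had a median of −0.31 and negative values in 41 of 46 members, against 0.00 and 6712 of 13525 for all genes. Mcm4 was at −0.64 ± 0.13 (adjusted p = 1) and was the 1 member that DESeq2 called there. The larger count of IL-4 calls in KO than in WT is thus not shown to be a difference between genotypes by edgeR. This interaction, the genotype contrast in control and the IL-4 contrast in KO all use the same KO control libraries. Their results are therefore not independent. Between genotypes after IL-4, the median of the members was −0.11, against 0.00 for all genes.

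Related lists that hold none of the 46 genes were read from the same fit for LPS+IFNγ. Over all 13525 genes tested, 3527 fell and 3676 rose in KO, and 3648 fell and 3700 rose in WT. Of 36 other replication genes, 23 fell and 5 rose in each genotype (median −1.14 in KO and −1.33 in WT). The checkpoint adaptor Clspn was at 0.270 and 0 CPM in KO LPS+IFNγ libraries, against 67.3 and 59.4 CPM in KO control libraries, and at 0.0681 and 0.271 CPM in WT LPS+IFNγ libraries, against 70.6 and 60.6 CPM in WT control libraries. Dtl, a substrate receptor for destruction of Cdt1, was at 0.203 and 0.774 CPM in KO LPS+IFNγ libraries, against 38.6 and 38.4 CPM in KO control libraries, and at 0.204 and 0.136 CPM in WT LPS+IFNγ libraries, against 35.4 and 33.4 CPM in WT control libraries. The 5 that rose, named after their values were seen, were Asf1a, Mcm9, Orc4, Pold4 and Mcmbp. The histone chaperone Asf1a changed by 1.496 ± 0.27 in KO and 1.31 ± 0.27 in WT, and with scaling by total counts it was still called higher in both (0.99 in KO and 0.81 in WT). With that scaling Pold4, Orc4 and Mcmbp were not past the threshold in either genotype, Mcm9 passed in WT only, and Orc4 in KO was at −0.09.

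Of 13 other nucleotide supply genes, 7 fell and 3 rose in each genotype. The dUTPase Dut was at 0.810 and 0.678 CPM in KO LPS+IFNγ libraries, against 26.2 and 24.3 CPM in KO control libraries, and at 0.613 and 0.339 CPM in WT LPS+IFNγ libraries, against 19.7 and 22.2 CPM in WT control libraries. Shmt1, a one-carbon enzyme that feeds thymidylate synthesis, changed by −4.20 ± 0.44 in KO and −5.41 ± 0.48 in WT, and Dctd, dCMP deaminase, by −2.52 ± 0.59 in KO and −3.22 ± 0.64 in WT. After LPS+IFNγ, Shmt1 was at 0.270 and 0.194 CPM in KO and 0.0681 and 0.136 CPM in WT libraries. Dctd was at 0.203 and 0.581 CPM in KO and 0.272 and 0.0678 CPM in WT libraries, from 1.41 to 2.53 CPM in control. Several of these levels were at or below 3 counts, so the depth of both falls was not well determined. Dck, deoxycytidine kinase, and Rrm2b, an alternative small subunit of ribonucleotide reductase, rose, but with total counts Rrm2b was not past the threshold in either genotype and was at −0.11 in KO. Samhd1, which hydrolyses deoxynucleotides, was at 2139.9 and 2431 CPM in KO LPS+IFNγ libraries, against 271 and 183 CPM in KO control libraries. Samhd1 in WT was at 2207 and 2127 CPM after LPS+IFNγ, against 220.5 and 211 CPM in control. It rose by a log2 fold change of 3.33 ± 0.26 in KO (edgeR adjusted p = 6.50e-06) and 3.33 ± 0.26 in WT (adjusted p = 5.82e-06), while the 4 nucleotide supply members fell.

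**Figure D5:**
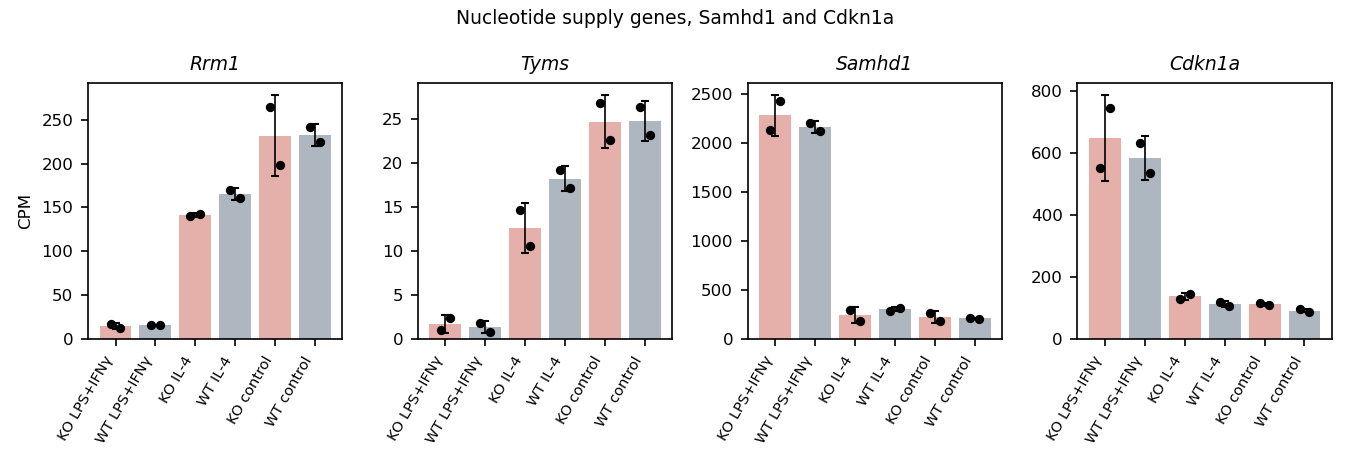
Bars give the mean CPM of 2 libraries per group with the SD as error bars and the libraries as points, for Rrm1, Tyms, Samhd1 and Cdkn1a, with KO left of WT. Rrm1 and Tyms are lowest and Samhd1 and Cdkn1a highest in the LPS+IFNγ groups.

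Of 16 S-phase repair and checkpoint genes, 15 fell and 0 rose in each genotype (median −4.31 in KO and −3.82 in WT). The exonuclease Exo1 had 0 counts in both KO LPS+IFNγ libraries and was at least 55.9-fold lower than in KO control libraries, taking 3 counts in the shallower library as the limit. The checkpoint kinase Chek1 changed by −6.16 ± 0.22 in KO and −5.80 ± 0.21 in WT, and Fancd2, of the interstrand crosslink pathway, by −4.95 ± 0.31 in KO and −6.50 ± 0.34 in WT. Of 17 E2F and pocket protein genes, 9 fell and 1 rose in each genotype. The repressor E2f7 had 0 counts in all 4 LPS+IFNγ libraries and was at least 91.7-fold lower in KO and at least 142-fold lower in WT. The activator E2f2 changed by −6.18 ± 0.29 in KO and −6.92 ± 0.30 in WT, and Mybl2, which joins E2F-regulated complexes in the cycle, by −5.68 ± 0.32 in KO and −6.18 ± 0.33 in WT. The 1 that rose was E2f4 (0.46 ± 0.10 in KO and 0.36 ± 0.10 in WT), and with total counts its sign turned (−0.04 in KO and −0.14 in WT). After IL-4, E2f7 (−1.37 ± 0.28 in KO and −1.34 ± 0.28 in WT) and E2f2 (−1.03 ± 0.19 in KO and −0.87 ± 0.19 in WT) fell in both genotypes. Of the repair list, 5 genes fell in KO after IL-4, with Fancd2 and Chek1 among them, and 1 in WT (Brca1). Of the other replication genes 4 fell in KO, and 3 fell and 1 rose in WT. Over all genes, 3.34% fell in KO and 4.12% in WT, and 665 of 13525 rose in WT.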

How the data were processed

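How reads were trimmed, which annotation was counted and if counts used strand is not given in the sources used here. The deposited table holds the authors' estimated counts per gene, all whole numbers and used as they stood. Per the submitters' processing notes, FastQC 0.11.9, Salmon 1.10.2, R 4.4.1 and DESeq2 1.45.3 served the processing, and the build named there is GRCm39. Per the labels' protocols, libraries were made from total RNA with a directional kit. Every sample column was matched to a sample by its title, with 0 left over. Of 55891 identifiers, 51425 (92.0%) matched a symbol in GENCODE M21 (GRCm38), whose positions were not converted to GRCm39. Lin54 of the E2F list was not matched.

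In R 4.3.3, edgeR 4.0.16 was run on all 12 libraries in 1 fit with 1 coefficient per group, after filterByExpr (13525 genes kept) and TMM scaling, with factors of 0.756 to 0.833 in LPS+IFNγ libraries and 1.09 to 1.16 in the others. The fit left 6 residual and 3.36 prior degrees of freedom. Tests are two-sided quasi-likelihood F tests for 12 contrasts, with Benjamini-Hochberg adjustment over all genes tested and a threshold of 0.05. SEs of log2 fold changes come from the F statistics, and levels are CPM with TMM factors. DESeq2 1.42.0 and the settings named in the closing section were run as alternatives. The code was tested on simulated counts. Libraries of a group differed by more than sampling noise (chi-square per gene of 7.10 to 54.9), so none was treated as the same library sequenced again. This value cannot show whether they are separate mice or cultures, since separate preparations of 1 culture could also differ by more than sampling noise. Counting intervals are exact at 95%, and like the limit of 3 counts they cover counting error only.

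The members and gene lists were chosen with earlier results of these data known, so no list is independent evidence. Values in every library are given, in each of the 7 role groups, for the member with the highest mean CPM and for that with the largest change in WT after LPS+IFNγ. They are also given for Mcm2 to Mcm7 and for any member called between genotypes or against the direction of most members. Of each other list, up to 4 called genes with the largest change are named, and any further ones were chosen after their values were seen. The values of 1 gene of the repair list are not reported here. E2F motifs were searched in RefSeq promoter windows of GRCm38.p6.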

Additional observations from a re-analysis of the deposited data

How the results depend on the processing

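Each result was recomputed with DESeq2-type size factors, scaling by total counts, DESeq2, no filter on low counts, the libraries of the contrast alone, the library number as a block, and with each library left out in turn. After seeing the data, a fit without the 3 KO libraries numbered 2 was added. Members lower after LPS+IFNγ ranged from 44 to 45 in KO and from 43 to 45 in WT when 1 library was left out, and were 46 in each with total counts. Against IL-4 the lower counts ranged from 40 to 44 in KO and from 42 to 45 in WT when 1 library was left out. Members lower after IL-4 ranged from 3 to 18 in KO and from 0 to 6 in WT when 1 library was left out, and with the contrast's own libraries alone were 0 in KO and 12 in WT, where 1 was higher. Without the KO libraries numbered 2 the WT count was 9. The replicate block gave 7 lower in WT after IL-4, with Rrm1, Rrm2 and Uhrf1 among them, called Rrm2 lower in KO also, and changed no other count of calls by over 1.5 times. The library numbers are not stated to pair samples. Deviations from group means correlated above 0.1 in 14 of 15 pairs of groups (lowest 0.046), and in 6 of 6 pairs of the same genotype (0.195 to 0.337). The main fit has no term for this. The block was 1 term over both genotypes, so a pairing within each genotype was not modelled. KO LPS+IFNγ against KO IL-4 had 1 member higher with DESeq2-type size factors and with DESeq2, and from 0 to 1 when 1 library was left out. KO against WT in control had 3 members higher with DESeq2 and 2 without the KO libraries numbered 2. KO against WT after LPS+IFNγ had 1 member lower with no filter, and from 0 to 1 lower and from 0 to 1 higher when 1 library was left out. The interaction with IL-4 had 1 member lower with DESeq2. Leaving out 1 library of a group assumes that the other varies like the rest. Of values for single named genes, 1207 kept their direction and side of the threshold, 68 lost the call, 39 gained it and 18 changed sign, all of the last in members not called with TMM scaling. After LPS+IFNγ these were Pold3 in KO (−0.44 with total counts, −0.0443 without the KO libraries numbered 2, and −0.0149 to 0.1179 when 1 library was left out) and in WT (−0.35 with total counts). After IL-4 in KO, values with 1 library left out ranged from −0.0793 to 0.2671 for Pcna and from −0.4199 to 0.0172 for Cdc7. After IL-4 in WT, such ranges were −0.0448 to 0.0102 for Mcm2, −0.1796 to 0.0131 for Mcm5, −0.0068 to 0.0633 for Mcm6, −0.1812 to 0.0234 for Pold3, −0.0819 to 0.1305 for Cdt1 and −0.1823 to 0.0824 for Orc1, and with total counts Mcm6 was at −0.0339 and Cdt1 at −0.0416. The cause of these changes was not tested, except that total counts lowered the median of all genes by 0.50. Depth limits the size of the LPS+IFNγ fall for the 13 members with 1 to 40 counts per group in at least 1 genotype (Mcm10, Cdc45, Pola1, Prim1, Pole, Pole2, Cdc6, Orc1, Cdc7, Tyms, Rrm2, Tk1 and Ccne2). It likewise limits genes of the other lists with few counts after LPS+IFNγ, such as Clspn, Dtl, Shmt1 and Dctd.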

Other observations

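After LPS+IFNγ, 7 of 15 G1 cyclins, kinases and inhibitors fell and 3 rose in KO, and 7 fell and 4 rose in WT. Over all 13525 genes tested, 3676 rose in KO and 3700 in WT, and 26.1% and 27.0% fell. Cdkn1a, the Cdk inhibitor p21, was at 552 and 747 CPM in KO LPS+IFNγ libraries, against 116 and 109 CPM in KO control libraries. In WT, Cdkn1a was at 634 and 535 CPM after LPS+IFNγ, against 96.5 and 88.3 CPM in control, and it rose by a log2 fold change of 2.53 ± 0.17 in KO and 2.66 ± 0.17 in WT. Ccnd2, a D-type cyclin that drives G1 progression, rose by 3.26 ± 0.50 in KO and 4.88 ± 0.55 in WT. With scaling by total counts Cdkn1a and Ccnd2 were still called higher in both genotypes, while Ccnd3 and, in WT, Cdk6 were not. Cdkn2c, an inhibitor of Cdk4 and Cdk6, changed by −4.93 ± 0.52 in KO and −4.91 ± 0.48 in WT, and the growth regulator Myc changed by −3.19 ± 0.41 in KO and −2.98 ± 0.43 in WT. After IL-4, Myc was at 50.9 and 52.0 CPM in KO IL-4 libraries, against 14.2 and 35.0 CPM in KO control libraries. Myc in WT was at 53.0 and 56.7 CPM after IL-4, against 14.5 and 14.5 CPM in control, and its log2 fold change was 1.07 ± 0.34 in KO, which did not pass (edgeR adjusted p = 0.093), and 1.92 ± 0.35 in WT, which did (adjusted p = 0.0119). The other gene of this list past the threshold after IL-4 was Ccnd3, lower in both genotypes (−0.77 ± 0.15 in KO and −0.58 ± 0.15 in WT).

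All 20 mitosis genes fell after LPS+IFNγ in each genotype, with a median log2 fold change of −7.33 in KO and −6.97 in WT. Their summed level was 45.6 and 77.6 CPM in KO LPS+IFNγ libraries, against 2030.1 and 1200.3 CPM in KO control libraries, and 49.7 and 52.1 CPM in WT LPS+IFNγ libraries, against 2422 and 2342 CPM in WT control libraries. Top2a, the topoisomerase that untangles chromosomes, was at 2.30 and 2.90 CPM in KO LPS+IFNγ libraries, against 451 and 268 CPM in KO control libraries. Ccnb2, a mitotic cyclin, had 0 counts in both WT LPS+IFNγ libraries and was at least 311-fold lower there than in WT control libraries. After IL-4 the sum was 1086 and 611 CPM in KO and 1261 and 1319 CPM in WT libraries, and Top2a fell in both genotypes (−0.98 ± 0.24 in KO and −0.92 ± 0.24 in WT). All 20 values were negative in each genotype after IL-4, with 1 past the threshold in KO and 2 in WT. The share of all genes that fell was 3.34% in KO and 4.12% in WT.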
